A study of Mus musculus with 6 samples.

Results

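The mitochondrial genome (mtDNA) of the mouse carries 13 protein genes, and 8 of them were measured here: mt-Nd1, mt-Nd2, mt-Nd4, mt-Nd5, mt-Nd6, mt-Co1, mt-Cytb and mt-Atp8. They were chosen by name, through the GENCODE M21 symbols of the Ensembl IDs, from 23154 gene rows per library, and all 8 had at least 2060 reads in every library and passed the filter on low counts. RNA-seq was done in C2C12 cells, an established mouse myoblast line. Stable lines carried the doxycycline-inducible vector pINDUCER20b with either HA-tagged NUR77, an orphan nuclear receptor, or GFP as the control. Both groups were grown in DMEM with fetal calf serum, L-glutamine, penicillin and streptomycin and received doxycycline at 1 µg/mL for 18 hours, starting 24 hours after seeding, with 3 libraries per group, each from its own dish. Each construct is represented by 1 stable line in the labels, so differences between the lines and effects of the construct cannot be told apart, and p-values measure the spread between dishes of a line. The series title asks about NUR77, the factor YY1 and mitochondria in macrophages, while the cells measured here were myoblasts. Values are listed in the order of replicates 1, 2 and 3, HA-NUR77 before GFP.

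mtDNA is transcribed from both strands into long precursors that are cut into messenger, ribosomal and transfer RNAs, largely at the transfer RNAs that lie between the genes. The messengers encode hydrophobic core subunits of the respiratory chain and of ATP synthase, which are assembled together with many subunits encoded in the nucleus. Most mitochondrial messengers carry short poly(A) tails, and these libraries were made by selection of poly(A) RNA. In muscle cells the respiratory chain supplies much of the ATP, and its subunits increase as myoblasts differentiate.

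Reads of the other mtDNA protein genes were few where counted, and their sequences were compared with annotated nuclear transcripts. Whether nuclear copies account for the few reads was not tested. Over all 6 libraries mt-Co2, mt-Atp6, mt-Co3 and mt-Nd3 had 37, 80, 14 and 153 reads, against 14452 for mt-Nd6, the least covered of the 8 genes, and 979529 for mt-Co1. Reads of the fifth, mt-Nd4l, were not analysed here, and only its sequence was used. A cluster of 7 annotated pseudogenes on chromosome 1 (GRCm38, 24611535 to 24616197, minus strand) holds copies of part of mtDNA. Along 678 to 783 aligned bases mt-Co2, mt-Atp6 and mt-Co3 were identical to a copy in this cluster, as was mt-Nd4l along 294, and mt-Nd3 differed at 1 base of 345. The first pair shows identity for mt-Co3, and the second shows the single difference for mt-Nd3. Both pairs run 5′ to 3′ on the coding strand, from the GENCODE M21 transcripts (GRCm38), and capitals mark bases that differ within a pair.
mt-Co3 (chrM:8847-8906, plus strand): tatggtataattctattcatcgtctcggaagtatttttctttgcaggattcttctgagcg
Gm28437 (chr1:24613672-24613731, minus strand): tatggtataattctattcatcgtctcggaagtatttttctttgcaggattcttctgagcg
mt-Nd3 (chrM:9459-9518, plus strand): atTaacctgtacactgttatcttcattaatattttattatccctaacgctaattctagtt
Gm28438 (chr1:24613060-24613119, minus strand): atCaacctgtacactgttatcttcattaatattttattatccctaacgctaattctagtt

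The highest-scoring nuclear matches of mt-Cytb and mt-Nd5 were less similar. Gm11410 on chromosome 4 matched mt-Cytb at 92.9% of 1142 aligned bases, and Gm11407, also on chromosome 4, matched mt-Nd5 at 92.3% of 1058. A shorter match of mt-Nd5, Gm4076 on chromosome 13, reached 95.2% of 954 bases. The windows of 60 bases show 5 and 7 differences, in capitals.
mt-Cytb (chrM:14745-14804, plus strand): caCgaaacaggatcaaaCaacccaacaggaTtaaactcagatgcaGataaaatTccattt
Gm11410 (chr4:80004589-80004648, plus strand): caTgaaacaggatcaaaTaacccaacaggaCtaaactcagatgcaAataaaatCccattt
mt-Nd5 (chrM:12702-12761, plus strand): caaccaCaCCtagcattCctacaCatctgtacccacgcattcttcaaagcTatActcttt
Gm11407 (chr4:80002544-80002603, plus strand): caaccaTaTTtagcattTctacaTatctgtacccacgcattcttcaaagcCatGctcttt

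No base of mt-Nd1, mt-Nd6, mt-Cytb or mt-Atp8 lay in an exact run of 50 bases or more shared with an annotated nuclear transcript. In the other members the share was 17.2% for mt-Nd2, 24.3% for mt-Nd5, 63.6% for mt-Nd4 and 74.9% for mt-Co1. With runs of at least 100 bases these shares were 12.4%, 0%, 63.6% and 48.1%. For mt-Nd4 the copy spans its first 876 of 1378 bases. For mt-Co1 the longest copy, Gm13340 on chromosome 2, covers all 1545 bases at 97.6% identity. In the 5 genes outside the measured set, 98.3% to 100% of bases lay in such runs of 50. The shares count annotated transcripts only, not the whole genome, and no source used here gave the read length. The nuclear copies themselves held few reads: 6 of 11 copies with at least 95% identity had a row in the tables, with 563 reads in all, 318 of them on Gm13340. How reads of shared sequence were treated in the counting was not tested, so the levels of mt-Co1 and mt-Nd4 are uncertain. The same limit holds for mt-Nd5 and mt-Nd2, with their smaller shares.

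**Figure D1:**
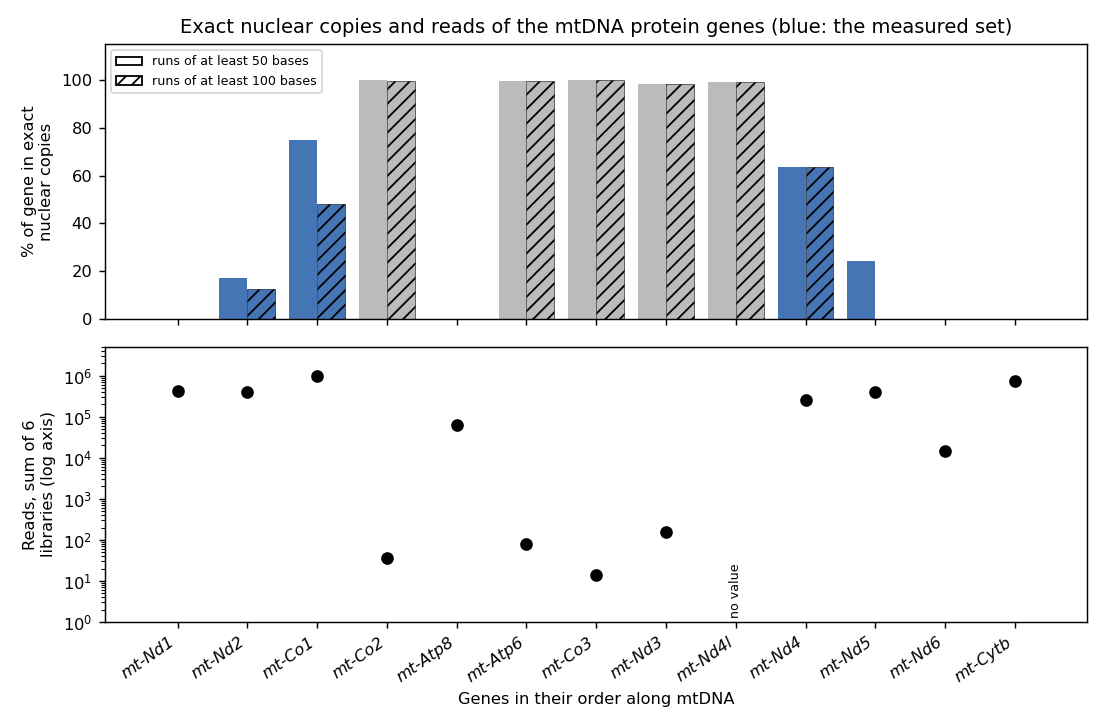
Upper panel: percent of each mtDNA protein gene's bases in exact runs of at least 50 (plain) or 100 (hatched) bases shared with an annotated nuclear transcript, in the genes' order along mtDNA. Lower panel: reads summed over 6 libraries on a log axis. The 8 measured genes are blue, and those with grey bars hold 14 to 153 reads where they have a value, against 14452 to 979529 for the blue ones.

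mt-Atp8, which encodes a small membrane subunit of ATP synthase, overlaps mt-Atp6 by 43 bases on the same strand. Its 204 bases are printed because so short a gene with a shared end can lose reads in counting. Capitals mark the shared bases.
mt-Atp8 (chrM:7766-7969, plus strand): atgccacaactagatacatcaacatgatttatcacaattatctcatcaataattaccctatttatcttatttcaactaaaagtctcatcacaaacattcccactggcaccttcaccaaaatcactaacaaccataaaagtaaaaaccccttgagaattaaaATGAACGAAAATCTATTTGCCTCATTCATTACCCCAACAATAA
On the opposite strands mt-Nd5 and mt-Nd6 overlap by 14 bases. No source used here gave the strand setting of the counting, so reads of mt-Nd6 cannot be told apart from antisense reads.

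Library totals ran from 13906096 to 22821446 counts, with the largest in HA-NUR77 replicate 2. All 7 markers of myoblasts and muscle had reads in every library, with a summed level of 6190 to 7070 CPM (here counts scaled by library total alone) in HA-NUR77 and 4370 to 5750 in GFP, without overlap. Their most abundant gene was Des, the muscle intermediate filament, at 2050 to 3730 CPM. The markers did not move together: the log2 fold change was 0.54 for Cdh15, the 1 marker of the 7 past the test (edgeR adjusted p = 0.0054). It was 0.40 for Des, 0.37 for Myod1 and 0.28 for Chrna1, -0.23 for Myf5, -0.28 for Pax7 and near 0 for Myog. The part of these marker differences in the results on mtDNA transcripts was not tested. Macrophage and leukocyte markers (7, led by Csf1r) summed to 2.44 to 3.95 CPM in HA-NUR77 and 1.61 to 3 in GFP, and endothelial ones (4, led by Tek) to 0.701 to 0.935 and 0.401 to 1.31. Epithelial markers (4, led by Cdh1) summed to 0.964 to 1.56 and 2.46 to 3.21, with Epcam and Krt18 at 0. Adipocyte markers (4, led by Pparg) summed to 3.64 to 5.47 and 2.32 to 2.67, with Adipoq and Plin1 at 0. The last 2 lists did not overlap between groups, and their part in the results was not tested either. Their sums were mostly Cdh1 (1.51, 0.92 and 1.29 CPM against 3.1, 2.46 and 3) and Pparg (3.74, 3.51 and 5.39 against 2.32, 2.32 and 2.6). Krt8 and Fabp4 stood at 0.216 CPM or less in every library and overlapped. Of all single genes tested, 23.0% were higher and 22.5% lower without overlap. Nr4a1, the mouse gene for NUR77, had 437, 445 and 355 reads with HA-NUR77, against 327, 196 and 417 with GFP. It did not pass the test (edgeR adjusted p = 0.698), and since the species of the insert is not given, it does not check the labels.

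Together the 8 transcripts made up a few percent of all counts in both groups. Their share was 3.20%, 2.85% and 3.40% of the library total with HA-NUR77, against 3.27%, 3.12% and 3.61% with GFP. The groups overlapped, and within each replicate number the HA-NUR77 library was the lower one. The means were 3.15% ± 0.279 and 3.33% ± 0.251 (SD, n = 3), a difference of -0.18 percentage points. This difference was -0.029 when replicate 2 of HA-NUR77 was left out, -0.042 when replicate 3 of GFP was, and -0.31 when replicate 3 of HA-NUR77 was. No p-value is given for this sum, since the genes were chosen with earlier results known. In bulk RNA, fewer cells of a type and less RNA per cell cannot be told apart.

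The order of the levels was compared per kilobase of gene (CPM per kb). In GFP, mt-Cytb, the cytochrome b of complex III, was highest at 6983 ± 799 CPM per kb (SD, n = 3). It was followed by mt-Co1, the catalytic subunit of cytochrome c oxidase, at 6396 ± 513, and their ranges overlapped. The complex I subunits mt-Nd1 and mt-Nd2 came next at 4232 ± 90.6 and 3736 ± 335. Below them stood mt-Atp8 at 3259 ± 340, mt-Nd5 at 2375 ± 162 and mt-Nd4 at 1852 ± 284. mt-Nd6, the 1 protein gene on the minus strand of the reference, was lowest at 280 ± 11.4. The part of poly(A) selection in its low level was not tested. In HA-NUR77 the ranks were the same, with mt-Cytb at 6150 ± 759, mt-Co1 at 6148 ± 719, mt-Nd1 at 4247 ± 184, mt-Nd2 at 3849 ± 129, mt-Atp8 at 2726 ± 428, mt-Nd5 at 2030 ± 93.3, mt-Nd4 at 1765 ± 199 and mt-Nd6 at 271 ± 39. Neighbours whose ranges overlapped were mt-Cytb and mt-Co1 in both groups, mt-Nd2 and mt-Atp8 in GFP, and mt-Nd5 and mt-Nd4 in HA-NUR77. The place of mt-Nd4 and mt-Co1 depends on the length used, as they would stand at 4964 and 24980 CPM per kb over all libraries if only bases outside exact runs of 50 counted, against 1809 and 6272 over the full length. On that count mt-Nd2 would stand at 4583 against 3793, above the 4240 of mt-Nd1. mt-Nd5 would stand at 2909 against 2203, still below the 2992 of mt-Atp8.

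None of the 8 transcripts passed the test between the groups. By edgeR's quasi-likelihood test, with p-values adjusted over 12509 genes, 0 of 8 were higher and 0 lower, and 0 had an unadjusted p under 0.05. Among all 12509 genes, 5079 had an unadjusted p under 0.05. Over all genes tested, 12.4% were called higher and 13.2% lower, 25.6% in all. DESeq2 called 1 of 8 lower, mt-Nd5, against 1878 lower of 12509 genes, and limma-voom called 0. The median log2 fold change of the 8, HA-NUR77 over GFP, was -0.063, against 0.0077 over all genes. Same-numbered libraries deviated together, and in the fit with that number as a block 3 of 8 were lower and 0 higher, against 24.6% lower and 23.5% higher over all genes. These 3 genes were mt-Atp8, mt-Cytb and mt-Nd5. They also had the lower level in HA-NUR77 in each of the 3 same-numbered pairs, which held for 34.8% of all genes.

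**Figure D2:**
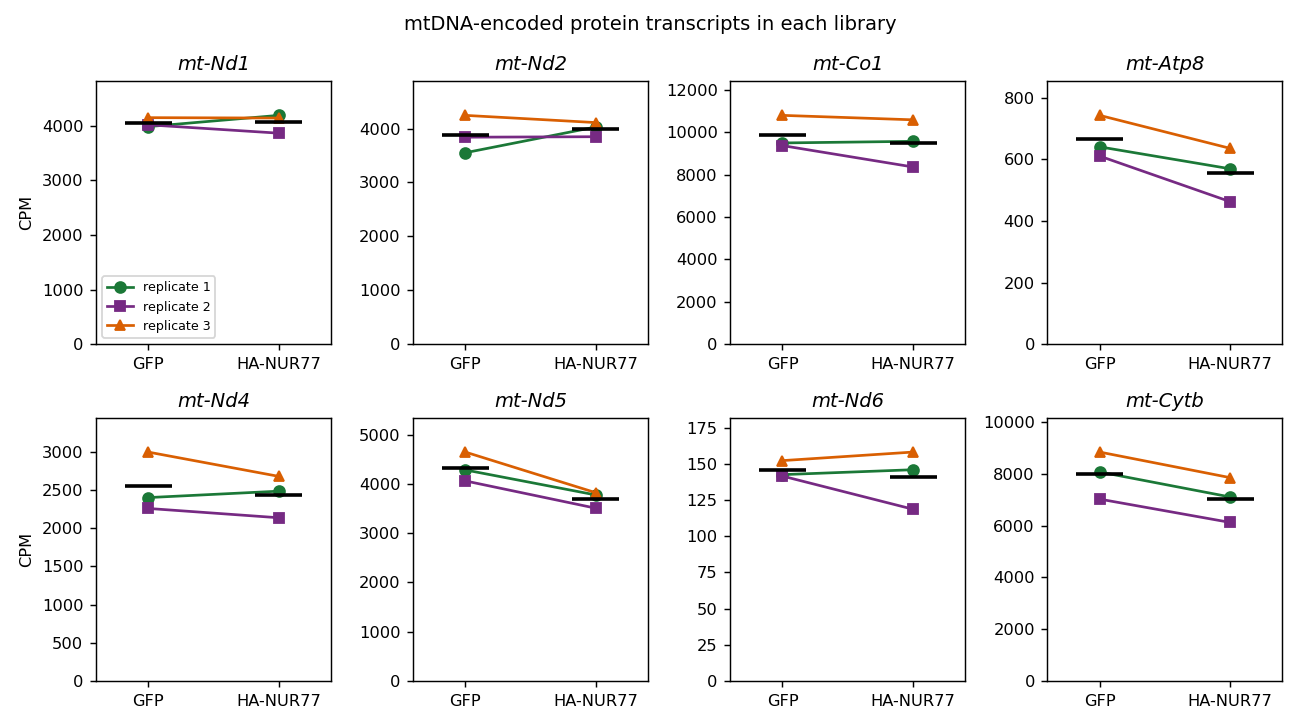
CPM of each gene in the 6 libraries, from 0 on a linear axis; lines join libraries with the same replicate number and black bars are group means. The lines of mt-Nd5, mt-Cytb and mt-Atp8 fall from GFP to HA-NUR77 in all 3 pairs, while those of the other 5 genes do not all run one way.

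Of the 5 members in the membrane arm of complex I, 4 overlapped between the groups. mt-Nd1 (ENSMUSG00000064341, chrM:2751-3707, plus strand), next to the quinone-binding part of the complex, stood at 4190, 3864 and 4141 CPM with HA-NUR77 and at 3984, 4017 and 4148 with GFP. Its highest and its lowest library both carried HA-NUR77. Its log2 fold change was 0.0053 (SE 0.092, edgeR adjusted p = 0.971; 95% interval -0.21 to 0.22). For mt-Nd2 (ENSMUSG00000064345, chrM:3914-4951, plus strand), a proton-pumping subunit, the levels were 4029, 3848 and 4110 CPM against 3551, 3839 and 4244. GFP held both its lowest and its highest library, and the log2 fold change was 0.043 (SE 0.10, adjusted p = 0.779). mt-Nd4 (ENSMUSG00000064363, chrM:10167-11544, plus strand), another pumping subunit, had 2484, 2136 and 2678 CPM against 2400, 2258 and 2996, a log2 fold change of -0.069 (SE 0.14, adjusted p = 0.738). The groups overlapped, with the highest library, replicate 3, and the second lowest, replicate 2, in GFP.

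mt-Nd5 (ENSMUSG00000064367, chrM:11742-13565, plus strand), the pumping subunit at the far end of the membrane arm, was the 1 gene of the 8 whose groups did not overlap. It stood at 3777, 3508 and 3823 CPM with HA-NUR77 and at 4286, 4063 and 4649 with GFP, and separation in this direction occurred in 22.5% of all genes. The log2 fold change was -0.23 (SE 0.10; 95% interval -0.46 to 0.0052), a level 14.5% lower, with an unadjusted p of 0.0541 and an edgeR adjusted p of 0.131. It passed with DESeq2 (adjusted p = 0.0238) and with the block (-0.23, SE 0.064, edgeR adjusted p = 0.0117). mt-Nd6 (ENSMUSG00000064368, chrM:13552-14070, minus strand), the remaining complex I gene, had 145.9, 118.6 and 158.1 CPM against 142.5, 141.5 and 152.2. HA-NUR77 replicate 2 was the lowest library of all and replicate 3 the highest, and the log2 fold change was -0.047 (SE 0.11, adjusted p = 0.77).

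mt-Cytb (ENSMUSG00000064370, chrM:14145-15288, plus strand), which carries the quinone sites and both b haems of complex III, stood at 7114, 6130 and 7862 CPM with HA-NUR77 and at 8082, 7032 and 8852 with GFP. The groups overlapped, but the log2 ratio within pairs was -0.18, -0.20 and -0.17, nearly the same size in each. The log2 fold change was -0.18 both without a block (SE 0.14, edgeR adjusted p = 0.352) and with it (SE 0.065, adjusted p = 0.0348). The fit without a block gave -0.092 when replicate 2 of HA-NUR77 was left out and -0.11 when replicate 3 of GFP was.

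mt-Co1 (ENSMUSG00000064351, chrM:5328-6872, plus strand), which holds the copper and haem centres where oxygen is reduced, had 9566, 8356 and 10580 CPM in HA-NUR77 and 9489, 9364 and 10790 in GFP. In replicate 1 the 2 libraries were nearly equal, and replicate 2 of HA-NUR77 was the lowest. The log2 fold change was -0.057 (SE 0.13, edgeR adjusted p = 0.764; 95% interval -0.35 to 0.24).

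mt-Atp8 (ENSMUSG00000064356) stood at 569.5, 462.7 and 635.8 CPM with HA-NUR77 and at 640.8, 610.8 and 743 with GFP. HA-NUR77 replicate 3 lay above GFP replicate 2, so the groups overlapped, while the log2 ratios within pairs were -0.17, -0.40 and -0.23. The log2 fold change was -0.26 (SE 0.13, edgeR adjusted p = 0.186; 95% interval -0.57 to 0.051), or -0.27 with the block (SE 0.062, adjusted p = 0.00385), a level 16.8% lower. In the fit without a block it was -0.14 when replicate 2 of HA-NUR77 was left out and -0.18 when replicate 3 of GFP was. With both libraries of a replicate number left out, the fit with the block called 2 genes lower without number 1 (mt-Nd5 and mt-Atp8), 0 without number 2 and 3 without number 3. Without number 2 the edgeR adjusted p was 0.0645 for mt-Nd5, 0.156 for mt-Cytb and 0.051 for mt-Atp8. With every library the block leaves 2 residual degrees of freedom, against 4 without it, and fewer remain when a number is left out. The share of all genes called was not computed for the fits without a number.

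The transcripts were also compared with each other inside each library, which leaves out the scaling between libraries. These comparisons were chosen after the values were seen and carry no test. mt-Nd5 made up 11.85%, 12.34% and 11.25% of the reads of the 8 genes with HA-NUR77, against 13.16%, 12.97% and 12.71% with GFP, without overlap. mt-Atp8 made up 1.79%, 1.63% and 1.87% against 1.97%, 1.95% and 2.03%, also without overlap. mt-Cytb made up 22.32%, 21.57% and 23.13% against 24.81%, 22.45% and 24.20%, lower within each pair but with overlap between groups. The shares of mt-Nd1 and mt-Nd2 were higher in HA-NUR77 within each pair but overlapped between groups, with group means of 12.97% and 12.76% against 12.13% and 11.58%. As the shares are parts of the same whole, a lower share of some genes raises that of others. In CPM the pairs of mt-Nd1 and of mt-Nd2 did not all run one way. There were 0.902, 0.908 and 0.923 reads of mt-Nd5 per read of mt-Nd1 in HA-NUR77, and 1.08, 1.01 and 1.12 in GFP, without overlap. The same ratio to mt-Nd1 overlapped between groups for mt-Cytb (means 1.73 and 1.97) and for mt-Atp8 (0.136 and 0.164). Both were lower in HA-NUR77 within each pair.

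In the order of the genes along mtDNA, the 3 with a lower level in every pair all lay downstream of mt-Co1 on the plus strand. A lower level in every pair held for 34.8% of all genes, and none of the 3 passed by edgeR without the block. A trend along mtDNA was not tested. The 2 ribosomal RNA genes come first, ahead of mt-Nd1. mt-Rnr2, the large ribosomal RNA, stood at 610.1, 608.3 and 566.4 CPM with HA-NUR77 and at 511.8, 562.2 and 551.3 with GFP. The groups did not overlap, which occurred in this direction in 23.0% of all genes, and the log2 fold change was 0.14 (SE 0.078, edgeR adjusted p = 0.231; 0.0826 with the block). It passed with the block together with a correction for length and GC content (0.22, adjusted p = 0.0107). For mt-Rnr1, the small ribosomal RNA, the log2 fold change was 0.046 (SE 0.099, adjusted p = 0.752). From mt-Nd1 on, the log2 fold changes of the plus-strand members were 0.0053, 0.043, -0.057 for mt-Co1, -0.26 for mt-Atp8, -0.069 for mt-Nd4, -0.23 for mt-Nd5 and -0.18 for mt-Cytb. mt-Nd4 (SE 0.14) thus stood closer to 0 than its neighbours among the members, mt-Atp8 (SE 0.13) and mt-Nd5 (SE 0.10). These differences between genes were not tested. An exact nuclear copy holds 63.6% of the bases of mt-Nd4, and the part of this copy in its log2 fold change was not tested. Ribosomal RNA is largely removed by poly(A) selection, and how far its carry-over differed between libraries was not tested. Of the rest, mt-Nd3 (log2 fold change -0.21, SE 0.23), mt-Atp6 (0.10, SE 0.40) and the transfer RNA gene mt-Tl1 (0.41, SE 0.45) were kept with 153, 80 and 131 reads over all libraries. Their adjusted p by edgeR was 0.53, 0.87 and 0.519.

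**Figure D3:**
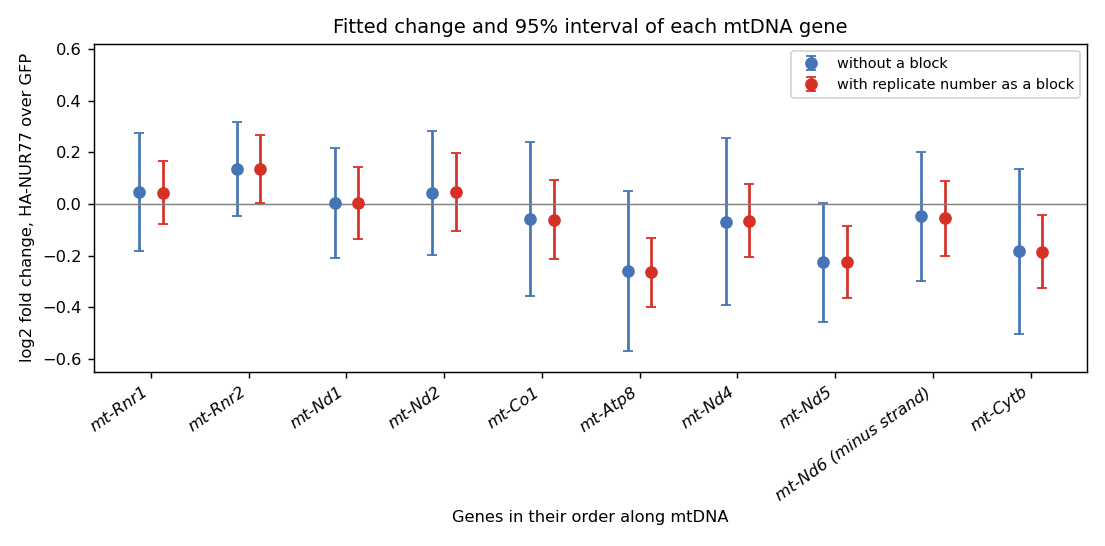
Log2 fold change (HA-NUR77 over GFP) with its 95% interval for the 8 protein genes and the 2 ribosomal RNA genes, in order along mtDNA, by edgeR without a block (blue) and with the replicate number as a block (red). The red intervals of mt-Atp8, mt-Nd5 and mt-Cytb lie below 0, and each blue interval includes 0.

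Most nuclear partners of these proteins were higher in HA-NUR77. Of 74 nuclear-encoded subunits of complexes I, III, IV and V, all of which were tested, 49 rose, 1 fell and 24 did not pass, against 12.4% higher and 13.2% lower over all genes. Their median log2 fold change was 0.34. The blocked fit called 67 higher and 1 lower. By complex, 21 of 36 rose in complex I, 8 of 9 in complex III, 8 of 14 in complex IV and 12 of 15 in ATP synthase. The 3 with the smallest adjusted p in each were Ndufc1, Ndufa9 and Ndufa3 (1.43-, 1.39- and 1.47-fold), Uqcr10, Cyc1 and Uqcrc1 (1.60-, 1.41- and 1.32-fold), Cox6c, Cox4i1 and Cox8a (1.32-, 1.29- and 1.28-fold), and Atp5e, Atp5g3 and Atp5h (1.56-, 1.38- and 1.37-fold), with edgeR adjusted p from 0.00113 to 0.00918. Leaving out replicate 1 or 3 of HA-NUR77 gave 24 and 28 higher, and leaving out replicate 1 or 2 of GFP gave 19 and 24, with 0 lower in each of these 4 fits. With the correction for length and GC content, without a block, 34 of the 74 were higher and 1 lower. Their median log2 fold change was then 0.24, and 1598 of all 12509 genes were higher and 1570 lower.

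**Figure D4:**
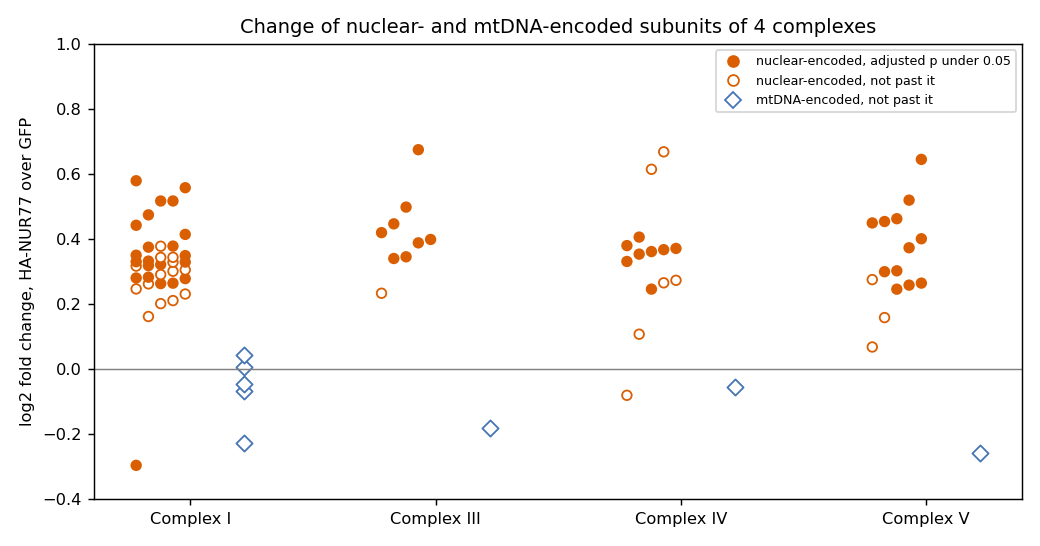
Log2 fold change (HA-NUR77 over GFP, edgeR without a block) of each nuclear-encoded subunit (circles, filled where the adjusted p is under 0.05) and each mtDNA-encoded subunit (diamonds) of 4 complexes. The mtDNA-encoded subunits lie between -0.26 and 0.043, and the nuclear-encoded ones have a median of 0.34.

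The ratio of mtDNA-encoded to nuclear-encoded reads was lower in every HA-NUR77 library than in any GFP library, for all 4 complexes. It is given without a test and compares libraries, not levels of genes, since it is not per length. For complex I, with 5 mtDNA genes measured, it was 5.06, 4.68 and 4.73 with HA-NUR77, against 6.10, 5.99 and 6.11 with GFP. For complex III, with mt-Cytb, it was 6.30, 5.44 and 6.43 against 9.79, 8.26 and 9.45. For complex IV, with mt-Co1, the values were 6.16, 5.56 and 6.58 against 8.04, 7.58 and 8.13. For ATP synthase, with mt-Atp8, they were 0.131, 0.105 and 0.137 against 0.196, 0.183 and 0.207. The nuclear side of the ratio was higher in HA-NUR77 without overlap between the groups, for all 4 complexes. The nuclear sums were 1.21, 1.33, 1.25 and 1.31 times as high in HA-NUR77 as in GFP for complexes I, III, IV and V, scaled to library size, while the mtDNA sums were 0.959, 0.881, 0.962 and 0.836 times as high and overlapped between the groups.

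**Figure D5:**
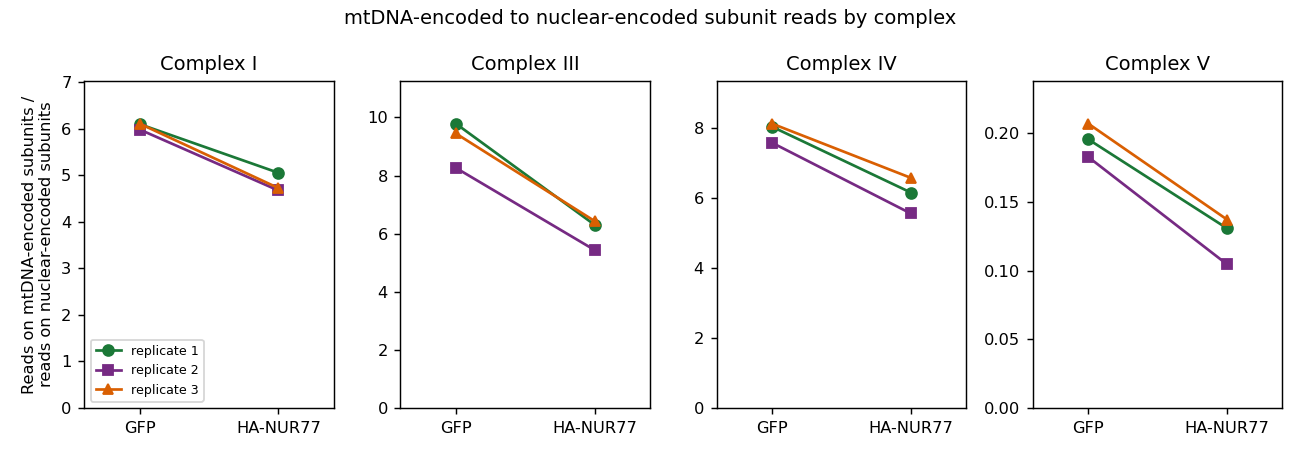
Reads on the measured mtDNA-encoded subunits divided by reads on the nuclear-encoded subunits of the same complex, in each library, from 0 on a linear axis; lines join libraries with the same replicate number. In each panel the 3 HA-NUR77 libraries lie below the 3 GFP libraries, as for complex I with 4.68 to 5.06 against 5.99 to 6.11.

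Genes that transcribe mtDNA and process its RNA mostly did not pass. Of 10 transcription genes 2 rose: Tfam, the protein that coats mtDNA and bends its promoters (log2 fold change 0.44, SE 0.099, edgeR adjusted p = 0.0174), and Polrmt, the mitochondrial RNA polymerase (0.28, SE 0.082, adjusted p = 0.0434). Tfam stood at 49.64, 44.50 and 55.86 CPM in HA-NUR77 and 34.88, 36.05 and 39.31 in GFP, without overlap. Of 20 genes of mitochondrial RNA processing and stability 1 rose, Ptcd2 (0.38, SE 0.081, adjusted p = 0.0152), a pentatricopeptide-repeat protein, and 1 fell, Angel2 (-0.26, SE 0.065, adjusted p = 0.0226). Over these 30 genes, then, 3 rose and 1 fell, beside 12.4% and 13.2% of all genes, and the median was 0.14. With the block 10 were higher and 3 lower, beside 23.5% and 24.6% of all genes. The count higher was 0 when replicate 1 of HA-NUR77 was left out, 1 when replicate 1 or replicate 2 of GFP was, and 5 when replicate 3 of GFP was. The count lower was 2 when replicate 2 of HA-NUR77 was left out, and 0 when any of replicates 1 and 3 of HA-NUR77 or 1 and 2 of GFP was.

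The mean pattern of the 8 transcripts over the 6 libraries varied within each group. Relative to their own mean on the log2 scale, it stood at -0.016, -0.21 and 0.071 with HA-NUR77 and at 0.0070, -0.036 and 0.18 with GFP. HA-NUR77 replicate 2 was thus lowest and GFP replicate 3 highest. mt-Co1 followed this mean most closely, with a root mean square difference of 0.029, and mt-Nd2 least, with 0.101. Among 9930 nuclear genes averaging 5 CPM or more, the 5 with the smallest such difference over the 6 libraries were Fam120c, Larp4b, Psmc6, Yae1d1 and Slc9a9, at 0.0213 to 0.0313, against a median of 0.198.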

How the data were processed

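The authors deposited whole read counts for each Ensembl gene in a separate table for every library, without scaling. TopHat2 2.1, HTSeq, DESeq2 and the mm10 build are named, per the submitters' processing notes. What DESeq2 was used for, which annotation release served and how strand was set are not given in the sources used here. Poly(A) RNA libraries were stranded, per the labels' protocols. Symbols, coordinates and transcript sequences came from GENCODE M21 (GRCm38, the assembly of mm10), which matched 22872 of 23154 IDs.

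Groups were compared in R 4.3.3 by the quasi-likelihood test of edgeR 4.0.16, with TMM factors, group as the only term and robust fitting, on 12509 genes kept by filterByExpr at a minimum count of 10. Benjamini-Hochberg adjustment covered all of these genes, with a threshold of 0.05. CPM divides a count by the library's sum over the 12509 kept genes times its TMM factor. DESeq2 1.42.0 and limma-voom (limma 3.58.1) were alternatives. The fit was tested on simulated data. The members and lists were chosen with earlier results of these data known. Named genes are the 8 members, the other mtDNA genes, Nr4a1, in each list the 3 genes past the threshold with the smallest adjusted p, the most abundant marker of each list, and the 5 nuclear genes closest in pattern. The nuclear subunit that fell is not reported here by name. Nuclear copies were sought with exact runs and with blastn 2.17.0.

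The labels number the replicates 1 to 3 in both groups without saying what a number marks. Across genes, the 2 libraries with number 1, 2 or 3 correlated at 0.25, 0.55 and 0.47 in their log2 CPM deviations from the mean of their group. Each value exceeds the minimum of 0.1 for treating numbers as pairs, and the pairing therefore rests on the data. Blocked values are given beside the results in which they change a call. No 2 libraries of a group agreed within sampling noise: their counts gave a chi-square of at least 11.5 times its degrees of freedom. Alternatives were RLE and upper-quartile factors, library totals, scaling without mtDNA genes, no filter, a minimum count of 50, thinned counts, a length and GC correction, the block, and leaving out each library.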

Additional observations from a re-analysis of the deposited data

How the results depend on the processing

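The 8 genes had 0 calls in either direction without a block under other scaling factors, filters, limma-voom, thinned counts, a correction for length and GC content, and without any 1 library. The exceptions were 1 lower with DESeq2, 3 lower with the replicate block, and 3 lower with the block and the correction for length and GC content. Fits with the block and without both libraries of 1 number, chosen after seeing the data, gave 2, 0 and 3 lower without numbers 1, 2 and 3. mt-Nd5, mt-Cytb and mt-Atp8 kept a negative log2 fold change in all 21 alternatives, from -0.27 to -0.17, -0.27 to -0.092 and -0.37 to -0.14. Signs of genes near 0 changed. mt-Nd1 was -0.0025 with RLE factors, -0.0025 with DESeq2, -0.0013 with thinned counts, -0.0077 with the correction and -0.0073 with the correction and block, and with the block it was -0.029 without number 1. mt-Nd2 was then -0.021, and mt-Nd6 was 0.045 without number 2. Without 1 library, log2 fold changes ran from -0.019 to 0.042 for mt-Nd1, -0.017 to 0.11 for mt-Nd2, -0.15 to 0.056 for mt-Nd4, -0.14 to 0.065 for mt-Nd6 and -0.14 to 0.028 for mt-Co1. The cause was not tested.

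Over all genes 2942 were higher and 3071 lower with the replicate block, and 3082 and 2819 with the block and correction. Without 1 library 642 to 1489 were higher and 850 to 1572 lower, with 672 and 903 when replicate 1 of HA-NUR77 was left out, 642 and 850 when replicate 1 of GFP was, and 927 higher when replicate 2 of GFP was. Nuclear subunits higher numbered 19 to 58 without 1 library and lower 0 to 1, or 53 higher and 2 lower with the block and correction. With the correction alone 34 were higher. Of the 30 mtDNA expression genes, 5 were higher with upper-quartile factors, 10 higher and 3 lower with the block, 10 and 3 with the block and correction, and 0 to 5 higher and 0 to 2 lower without 1 library. Fewer samples or degrees of freedom enter the fits without a library. The share of counts on the 8 genes differed by -0.31 to -0.029 percentage points without 1 library. A change of a few percent in these transcripts is below what 3 libraries per group resolve here, as the 95% interval of mt-Nd1 spans -0.21 to 0.22.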
